A study of Mus musculus with 23 samples.

Results

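Newly transcribed RNA was compared with unamplified total RNA in serum-starved mouse embryonic fibroblasts, primary connective tissue cells that stop dividing when serum is low. The members were the arrays whose titles name starved cells and either newly transcribed RNA (4 arrays) or total RNA without the word amplified (4 arrays), so 8 of the 23 arrays of the series. Every culture came from e14.5 embryos with the genotype C57/BLACK6, ATF1 -/+, so all groups, starved and treated, carried that allele. Cells were kept for 48 hours in 1% serum and then for 2 hours in 1% serum with 200 µM 4-thiouridine, which was present in all samples, the total RNA samples included, together with radioactive cytidine. Other arrays served for comparison: amplified total RNA of the same starved cells (3 arrays), and newly transcribed and total RNA of cells given 10% serum during the 2 hours of labelling (4 arrays each, called treated). The sides of the comparison differ in amplification. The label protocol of all samples names a linear amplification, but only the titles of the amplified total RNA arrays carry that word, and whether newly transcribed RNA went through the same number of rounds as unamplified total RNA was not given in the sources used here. A difference between newly transcribed and total RNA can therefore hold a part that goes with amplification, and values against amplified total RNA stand beside the main ones.

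4-Thiouridine is a uridine analogue that living cells build into RNA as they make it, and the thiol group lets that RNA be caught on a mercury-coated matrix. Total RNA holds everything that has accumulated, so a stable transcript is abundant in it even where little is made, while a transcript with a short life makes up a larger share of newly made RNA than of total RNA. In fibroblasts, long-lived messages are known to include those of the ribosome, the mitochondria and secreted matrix, and short-lived ones those of immediate early factors and signalling inhibitors. Because every array was brought to the same distribution, the values compare a gene's relative level in each kind of RNA and carry no amount of RNA per cell. In cultures that may hold more than 1 cell type, fewer cells of a type and less RNA per cell cannot be told apart.

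Over 12422 probe sets, 3406 (27.4%) differed between newly transcribed and total RNA at an adjusted p below 0.05 (limma, Benjamini-Hochberg), with 1788 higher and 1618 lower in newly transcribed RNA. Of these, 1248 were at least 2-fold higher and 1122 at least 2-fold lower, and in 3203 the 4 arrays of each group did not overlap. Each gene was represented by its brightest probe set, which gave 8251 genes, of which 1423 (17.2%) were higher and 1161 (14.1%) lower. The split rested on the scaling of the arrays. With the values as deposited, 1584 probe sets were higher and 234 lower, and the median of all genes moved from -0.01 to 0.20. With each array scaled to 1 median, 2174 were higher and 1279 lower. Raw medians ran from 28.5 to 72.3 intensity units in newly transcribed and from 20 to 54.45 in total RNA. Total RNA arrays correlated with each other at 0.953 to 0.977 over all probe sets and newly transcribed arrays at 0.917 to 0.988, where arrays 2 and 3 were the closest pair. Arrays 2 and 3 stood nearer to total RNA (0.88 to 0.90) than arrays 1 and 4 did (0.81 to 0.83). Beside each list, counts are also given for arrays 1 and 4 alone, arrays 2 and 3 alone, the deposited values and median scaling where these moved a count by over 1.5 times or to or from 0.

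Nup54 had the highest ratio of newly transcribed to total RNA among the genes whose groups did not overlap. Levels below are log2(normalised intensity + 16) for arrays 1 to 4 of a group, differences are log2 with the SE of the fit, and each of the 12 genes had groups that did not overlap and an adjusted p from 0.00015 to 0.00262 (limma). Nup54, a nucleoporin of the central channel of the nuclear pore, was at 9.87, 9.84, 9.68 and 11.46 in newly transcribed and 5.61, 5.80, 6.35 and 6.25 in total RNA, a difference of 4.21 ± 0.40 or 18.5-fold. Nup50, a nucleoporin of the nuclear basket that takes part in protein import, was at 11.52, 10.22, 10.03 and 10.72 in newly transcribed and 6.78, 7.05, 7.52 and 7.51 in total RNA (3.41 ± 0.34). Ints5, a subunit of the Integrator complex that processes small nuclear RNAs, was at 8.68, 10.72, 10.23 and 10.38 in newly transcribed and 6.27, 6.91, 6.32 and 6.32 in total RNA (3.55 ± 0.42). For Nup50 and Ints5 the other probe sets gave 0.26 and 0.93, not called. Zmynd8 encodes a reader of modified histones. Its arrays were at 8.79, 8.12, 8.89 and 9.56 in newly transcribed and 5.32, 5.17, 5.31 and 5.45 in total RNA (3.52 ± 0.27). The total RNA arrays lay within a narrow band near the bottom of the scale. Taf1d, part of a factor that starts ribosomal RNA transcription, was at 11.51, 10.29, 10.33 and 10.19 in newly transcribed and 7.74, 7.27, 7.06 and 7.20 in total RNA (3.26 ± 0.31). Nifk, a nucleolar protein that binds the Mki67 antigen of dividing cells, was at 9.29, 9.47, 9.31 and 9.89 in newly transcribed and 5.51, 6.45, 6.62 and 6.91 in total RNA (3.12 ± 0.30). Both of these act in the nucleolus.

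Traf6, a ubiquitin ligase downstream of Toll-like receptors, was at 10.37, 8.69, 8.43 and 9.45 in newly transcribed and 6.45, 5.78, 6.29 and 5.85 in total RNA (3.15 ± 0.41). Otud4, a deubiquitinase, was at 11.94, 10.02, 10.0 and 11.29 in newly transcribed and 7.22, 8.22, 7.11 and 8.26 in total RNA (3.11 ± 0.5). Zzz3, a subunit of a histone acetyltransferase complex, was at 11.92, 10.22, 10.5 and 11.70 in newly transcribed and 8.29, 7.5, 7.94 and 8.22 in total RNA (3.10 ± 0.40). The other probe sets of Otud4 ran from 0.58 to 1.71 and those of Traf6 from 1.16 to 2.43. In Traf6, Otud4 and Zzz3 arrays 1 and 4 of newly transcribed RNA were above arrays 2 and 3. Smarcd2, a subunit of SWI/SNF chromatin remodellers, was at 11.35, 11.5, 11.13 and 12.19 in newly transcribed and 8.10, 8.57, 8.74 and 8.47 in total RNA (3.07 ± 0.25), but its other 3 probe sets gave -1.26 to 0.31, and 1 of them was called lower. Tent5c, a cytoplasmic poly(A) polymerase, was at 8.87, 6.86, 7.57 and 8.02 in newly transcribed and 4.44, 4.84, 4.47 and 5.43 in total RNA (3.03 ± 0.42). Ptger4, a receptor for prostaglandin E, was at 8.85, 7.92, 8.07 and 8.99 in newly transcribed and 5.20, 4.97, 5.84 and 5.71 in total RNA (3.03 ± 0.31). Tent5c, Ptger4 and Zmynd8 were near the bottom of the scale in total RNA, where the added 16 units understate a ratio and narrow the spread.

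**Figure D1:**
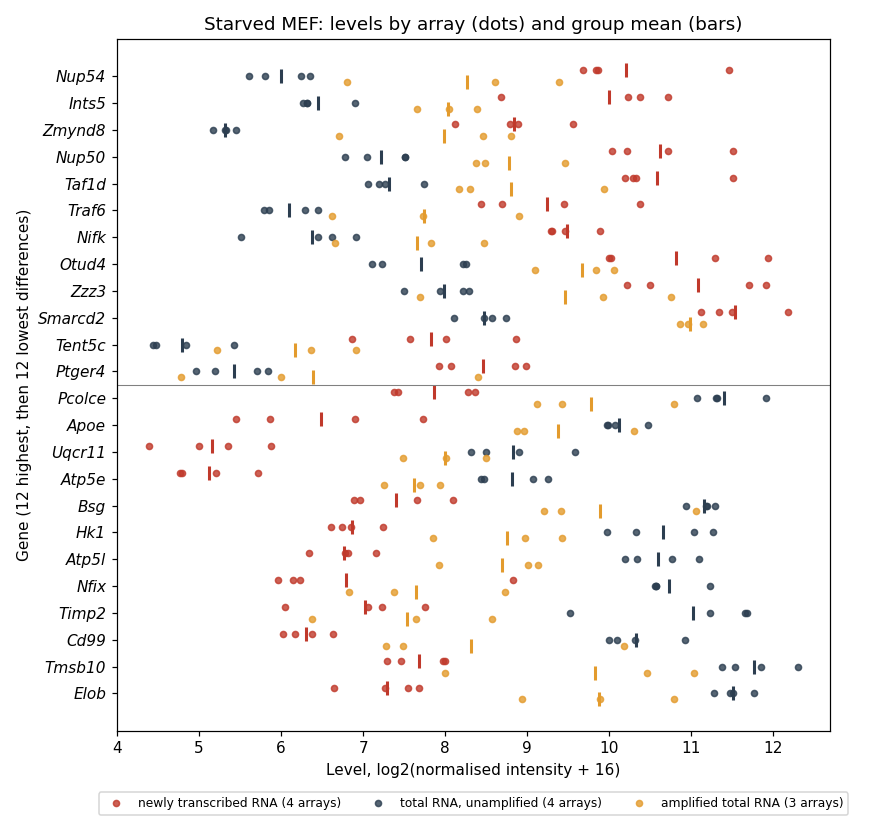
Levels of the 12 genes with the highest and the 12 with the lowest difference, as log2(normalised intensity + 16) on the horizontal axis; dots are arrays and vertical bars group means of newly transcribed, total and amplified total RNA of starved cells. The 24 genes were chosen among called genes whose newly transcribed and total RNA arrays do not overlap. The amplified total RNA mean lies between the other group means in each.

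Elob had the lowest ratio. The 12 genes at this end had groups that did not overlap, with an adjusted p from 5.67e-05 to 0.00218 (limma). Elob, a subunit of the Elongin ubiquitin ligase and elongation complexes, was at 6.65, 7.55, 7.68 and 7.27 in newly transcribed and 11.52, 11.76, 11.27 and 11.48 in total RNA, a difference of -4.22 ± 0.23 or 18.7-fold lower. Tmsb10, a peptide that binds actin monomers, was at 7.98, 8.0, 7.47 and 7.29 in newly transcribed and 12.30, 11.85, 11.53 and 11.38 in total RNA (-4.08 ± 0.25). Cd99, a cell surface glycoprotein, was at 6.02, 6.63, 6.37 and 6.17 in newly transcribed and 10.09, 10.0, 10.92 and 10.32 in total RNA (-4.04 ± 0.23). Bsg, basigin, a partner of lactate transporters at the cell surface, was at 6.96, 8.10, 7.65 and 6.89 in newly transcribed and 10.94, 11.18, 11.30 and 11.20 in total RNA (-3.76 ± 0.27). These genes were high in every total RNA array. Mitochondrial genes among the 12 were Atp5l, Atp5e and Uqcr11. Atp5l, a small subunit of ATP synthase, was at 6.33, 6.78, 6.82 and 7.15 in newly transcribed and 10.77, 11.09, 10.20 and 10.34 in total RNA (-3.83 ± 0.25). Atp5e, another small subunit of ATP synthase, was at 4.76, 5.20, 4.79 and 5.71 in newly transcribed and 8.44, 9.25, 9.08 and 8.47 in total RNA (-3.69 ± 0.28). Uqcr11, a small subunit of the cytochrome bc complex, was at 5.0, 5.88, 5.35 and 4.39 in newly transcribed and 8.31, 9.59, 8.5 and 8.90 in total RNA (-3.67 ± 0.37). For Atp5l the other probe set gave -0.37, not called. That of Elob gave -1.12 and was called lower. For Uqcr11 and Atp5e the newly transcribed arrays were close to the bottom of the scale.

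Hk1, the hexokinase that brings glucose into glycolysis, was at 6.61, 6.85, 6.74 and 7.24 in newly transcribed and 11.26, 11.04, 10.32 and 9.98 in total RNA (-3.79 ± 0.30). Timp2, an inhibitor of matrix metalloproteinases, was at 6.04, 7.23, 7.75 and 7.06 in newly transcribed and 9.52, 11.23, 11.66 and 11.68 in total RNA (-4.0 ± 0.54), while its other probe sets gave -0.36 to -0.12. Pcolce, which helps to cleave procollagen, was at 7.37, 8.28, 8.36 and 7.43 in newly transcribed and 11.32, 11.31, 11.92 and 11.07 in total RNA (-3.55 ± 0.29). Matrix genes are described as a group further on. Apoe, a lipid carrier, was at 7.73, 6.90, 5.86 and 5.45 in newly transcribed and 10.07, 9.99, 10.47 and 9.98 in total RNA (-3.64 ± 0.46), and its other probe set gave 0.13. Nfix, a transcription factor of the nuclear factor I family, was at 6.23, 6.14, 5.96 and 8.82 in newly transcribed and 10.58, 10.56, 11.23 and 10.58 in total RNA (-3.95 ± 0.60). In Nfix 1 newly transcribed array was far above the other 3, yet still below all total RNA arrays, as the choice of genes required. Its other probe set gave -2.21.

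Amplified total RNA was set beside both sides to give values for what goes with amplification. Raw medians of its 3 arrays were 7.4, 46.25 and 40.5 intensity units, so that of array 1 was under the added 16. The median SD over all genes was 0.47 in amplified, 0.36 in newly transcribed and 0.27 in total RNA, so steps to and from amplified total RNA are rough. The comparisons with amplified total RNA share arrays with the main one, so only their values are given. Newly transcribed minus amplified total RNA called 120 genes higher (1.45%) and 187 lower (2.27%), and amplified minus unamplified total RNA called 152 higher (1.84%) and 116 lower (1.41%). Over probe sets these comparisons called 395 and 428, and 0 each with the values as deposited (limma, with 1477 and 504 at an unadjusted p under 0.05). With the replicate block both also called 0 (2623 and 2296 unadjusted), and with a pseudocount of 1 they called 0 (2130 unadjusted) and 183. Leaving out single arrays gave 0 to 245 for the former, with 0 without newly transcribed array 2 or 3 or amplified array 2, and 0 to 2161 for the latter, with 0 without total RNA array 2 or 3 and 2161 without amplified array 2. For Timp2, amplified minus unamplified total RNA was -3.49 and newly transcribed minus amplified total RNA -0.51. For Nfix the values were -3.09 and -0.85, for Smarcd2 2.52 and 0.55, and for Zmynd8 2.67 and 0.85. For Nup54 they were 2.26 and 1.95, for Traf6 1.66 and 1.49, for Otud4 1.96 and 1.14, and for Hk1 -1.90 and -1.89. In these 8 of the 24 genes the larger step lay between the kinds of total RNA, by little for Nup54, Traf6 and Hk1. The reverse held for the other 16, by little for some of them. In the same order, Cd99 gave -2.015 and -2.021, and Atp5l -1.908 and -1.919. For Apoe, amplified minus unamplified total RNA was -0.75 and newly transcribed minus amplified total RNA -2.89, for Uqcr11 -0.83 and -2.84, and for Ptger4 0.96 and 2.07. Elob (-2.59), Atp5l (-1.92), Hk1 (-1.89), Atp5e (-2.51) and Uqcr11 were the 5 of the 24 genes that were also called lower against amplified total RNA, with adjusted p from 0.0217 to 0.0496 (limma, 4 against 3 arrays), and none of the 12 higher genes was called higher, with Nifk the nearest at 0.0682.

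**Figure D2:**
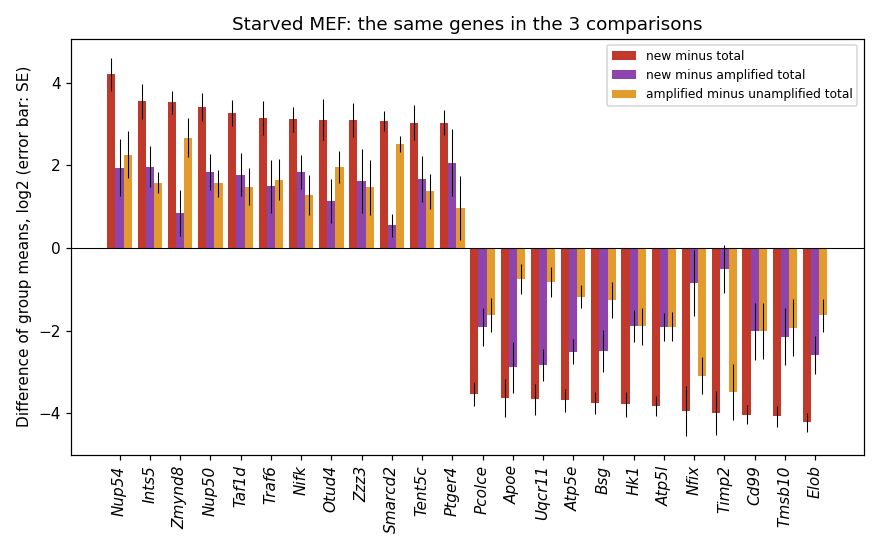
Differences of group means in log2 (bars, with the SE of the fit as error bars) for the same 24 genes in newly transcribed minus total RNA, newly transcribed minus amplified total RNA and amplified minus unamplified total RNA of starved cells. The bars of the last 2 comparisons add up to the first, and the amplified minus unamplified bar is the taller of them in 8 genes (Timp2, Nfix, Zmynd8, Smarcd2, Nup54, Traf6, Otud4 and Hk1).

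Control probe sets at the 3' and the 5' end of a transcript were compared, since arrays primed from the 3' end read both alike only where the copies are full length. For Gapdh, the glycolytic control gene, the 3' level minus the 5' level was 2.84, 2.11, 1.73 and 2.28 in newly transcribed RNA and -0.10, -0.24, -0.07 and -0.31 in total RNA. The difference of means was 2.42 (exact permutation test, two-sided, p = 0.0286, the smallest that 4 against 4 arrays can give). For beta-actin the values were 2.90, 2.49, 2.21 and 2.69 in newly transcribed and 0.43, 0.43, 0.15 and 0.33 in total RNA, a difference of 2.23 (exact p = 0.0286). Amplified total RNA was at 1.30, 1.23 and 2.09 for Gapdh and at 1.94, 2.53 and 2.50 for actin, so it resembled newly transcribed RNA more than total RNA. The 5' probe set itself differed by -3.01 for Gapdh and -2.83 for actin, while the 3' probe sets differed by -0.59 each, with exact p of 0.371 and 0.0571. The distance of each probe set from the 3' end was not used here, and its part in the calls was not tested.

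**Figure D3:**
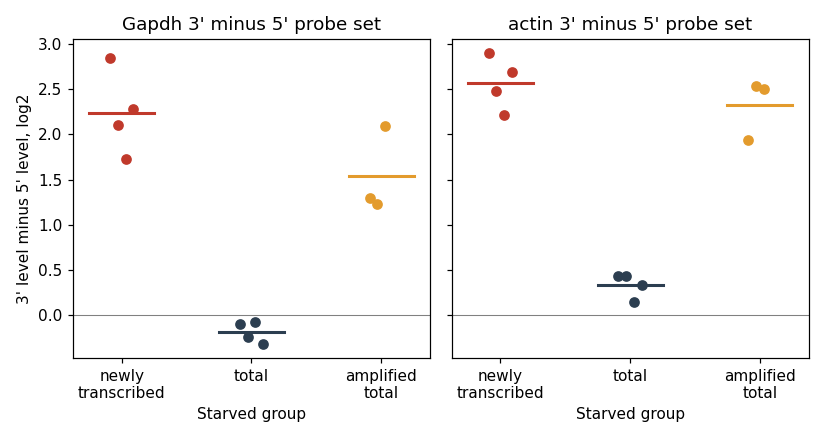
Level of the 3' control probe set minus that of the 5' control probe set (log2, vertical axis) for Gapdh and beta-actin in each array of newly transcribed, total and amplified total RNA of starved cells; points are arrays and horizontal bars group means. All 4 newly transcribed arrays lie above all 4 total RNA arrays, and the 3 amplified arrays lie above the total RNA arrays too.

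Gene lists were described by their counts and medians. Immediate early transcription factors, induced within minutes by growth signals and known for short-lived messages, were higher in 10 of 21 measured genes (47.6%, against 17.2% of all genes) and lower in 2. The median of the list was 1.08 here, 1.49 with the values as deposited and 1.22 with each array scaled to 1 median. Immediate early factors had 47.6% higher and 9.52% lower, against 17.2% and 14.1% of all genes, and higher and lower calls numbered 12 and 1 with arrays 2 and 3 alone and 8 and 0 with the deposited values. Fos, a subunit of the AP-1 factor, was at 9.35, 8.42, 8.94 and 9.51 in newly transcribed and 6.10, 6.52, 6.17 and 7.24 in total RNA (2.55 ± 0.32, adjusted p = 0.000985, limma). Its partner Jun was at 9.37, 9.58, 9.96 and 9.80 in newly transcribed and 7.26, 7.60, 7.78 and 7.90 in total RNA (2.05 ± 0.19, adjusted p = 0.000305, limma). Neither overlapped with total RNA. For Fos and Egr1 the other probe sets gave 0.40 and 0.37, not called. Klf2, a Krüppel-like factor, was at 6.68, 7.52, 8.10 and 7.72 in newly transcribed and 4.33, 4.53, 5.13 and 4.81 in total RNA (2.80 ± 0.31), and Egr2, a zinc finger factor, at 10.27, 8.83, 9.04 and 10.09 in newly transcribed and 7.70, 7.11, 6.66 and 7.20 in total RNA (2.39 ± 0.37). Egr1 showed 1.93 ± 0.62 with an adjusted p of 0.0496 (limma) and overlapping groups, at 10.59, 8.14, 9.73 and 9.5 in newly transcribed and 8.39, 6.42, 6.96 and 8.47 in total RNA. Myc, the growth-promoting factor, showed 1.08 ± 0.26 (0.0153), while Ier2 was at 1.19 ± 0.42 and missed the threshold (0.0723). Other called members were Klf6 (2.34), Atf3 (2.08), Klf4 (1.93) and Klf10 (1.82). The lower ones were Maff (-1.38) and Fosl2 (-1.05), both relatives of the AP-1 subunits. The comparison with amplified total RNA called 0 probe sets with the deposited values, a pseudocount of 1 or the replicate block. As given, it called 4 of the 21 higher and 0 lower, where 1.45% of all genes were higher and 2.27% lower. The median there was 1.30, while amplified minus unamplified total RNA had a median of -0.10.

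Feedback regulators, which shut down the signalling that induces them, were higher in 12 of 26 and lower in 1, with a median of 1.07 here, 1.64 with the values as deposited and 1.34 with each array scaled to 1 median. Feedback regulators had 46.2% higher and 3.85% lower, against 17.2% and 14.1% of all genes, and higher and lower calls numbered 11 and 0 with arrays 2 and 3 alone and 11 and 0 with the deposited values. Rgs2, which switches off G proteins, was at 9.49, 8.86, 9.10 and 9.57 in newly transcribed and 5.15, 6.56, 6.08 and 7.11 in total RNA (3.03 ± 0.39, adjusted p = 0.00114, limma). Gadd45a, a stress-induced growth arrest protein, was at 10.75, 10.18, 10.66 and 11.17 in newly transcribed and 8.44, 8.01, 7.25 and 8.10 in total RNA (2.74 ± 0.29). Dusp6, the phosphatase of the kinase ERK, was at 10.90, 8.30, 9.04 and 9.56 in newly transcribed and 7.94, 6.37, 6.05 and 7.38 in total RNA (2.51 ± 0.60, adjusted p = 0.0158, limma), and its array 1 was the highest in newly transcribed RNA. For Dusp6 the other probe set gave 0.08, not called. The EGF receptor inhibitor Errfi1 (2.49) and the cytokine signalling suppressors Socs2 (2.0) and Socs3 (2.10) were also higher. Spry4 (-0.74), an inhibitor of growth factor signalling, was the member called lower. Nfkbia, the inhibitor of NF-kappaB, had overlapping groups and 1.47 ± 0.52 (adjusted p = 0.0734, limma), and its other probe set gave -0.59. Against amplified total RNA the median was 1.11.

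Secreted cytokines, chemokines and growth factors were higher in 7 of 39 and lower in 3, and the median was 0.09 here, 0.56 with the values as deposited and 0.37 with each array scaled to 1 median. Cytokines and growth factors had 17.9% higher and 7.69% lower, against 17.2% and 14.1% of all genes, and higher and lower calls numbered 7 and 0 with the deposited values. Those higher were the EGF-like ligand Ereg (1.86 ± 0.25), the neurotrophin Bdnf (1.80), the macrophage growth factor Csf1 (1.01) and the chemokines Ccl7 (1.5), Cxcl2 (1.37), Ccl2 (1.07) and Cxcl10 (0.85). Those lower were Tgfb1 (-2.38 ± 0.69), the lymphatic growth factor Vegfd (-2.26 ± 0.51) and pleiotrophin, Ptn (-1.35). Tgfb1 was at 4.11, 6.91, 6.77 and 4.33 in newly transcribed and 8.10, 7.59, 8.56 and 7.40 in total RNA, and the newly transcribed arrays 1 and 4 were at the bottom of the scale. Its value against amplified total RNA was 0.56, and amplified minus unamplified total RNA gave -2.95. Amplified arrays 1 and 3 were close to the bottom of the scale too (4.12 and 4.44), so the difference cannot be split into steps. Vegfd gave -0.40 and -1.86 in the same order. Ereg was at 8.36, 7.79, 8.13 and 8.20 in newly transcribed and 5.87, 6.78, 5.84 and 6.58 in total RNA and gave 1.89 against amplified total RNA. For Ereg the other probe set gave 0.30, not called.

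Zinc finger genes named Zfp, many of which encode DNA-binding repressors, were higher in 42 of 89 and lower in 0, and no member was lower under deposited or median scaling either. Their median was 0.66 here, 1.04 with the values as deposited and 0.82 with each array scaled to 1 median. Zfp genes had 47.2% higher and 0% lower, against 17.2% and 14.1% of all genes, and higher and lower calls numbered 44 and 5 with arrays 1 and 4 alone and 44 and 1 with arrays 2 and 3 alone. Zfp37 was at 8.20, 6.48, 6.59 and 8.67 in newly transcribed and 5.38, 5.30, 4.96 and 5.37 in total RNA (2.24 ± 0.49), and Zfp131 at 9.75, 8.34, 8.85 and 9.15 in newly transcribed and 7.20, 6.84, 6.58 and 6.55 in total RNA (2.23 ± 0.30). Zfp36l1, which binds AU-rich elements and starts mRNA decay, was at 11.18, 9.89, 10.33 and 11.37 in newly transcribed and 8.08, 8.09, 8.47 and 8.36 in total RNA (2.44 ± 0.33) and counts in the list of decay regulators as well. In that list 8 of 24 were higher and 2 lower, with a median of 0.52 here, 0.81 with the values as deposited and 0.63 with each array scaled to 1 median. The median was 0.88 with arrays 1 and 4 alone and 0.23 with arrays 2 and 3 alone. Decay regulators had 33.3% higher and 8.33% lower, against 17.2% and 14.1% of all genes, and higher and lower calls numbered 9 and 4 with arrays 1 and 4 alone, 10 and 0 with the deposited values and 9 and 0 with median scaling. Dcp1a, a subunit of the decapping enzyme, showed 1.76 ± 0.33. Noct, a circadian relative of deadenylases, showed 1.72 ± 0.19, with -1.17 and 1.56 from its other probe sets. Subunits of the CCR4-NOT deadenylase were among the rest (Cnot8 (1.68), Cnot2 (1.58) and Cnot6l (1.54)). The lower ones were Exosc5 (-1.10) and Elavl1 (-0.65), an exosome subunit and a stabilising RNA-binding protein.

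Splicing regulators were higher in 15 of 35 and lower in 0, with a median of 0.82 here, 1.44 with the values as deposited and 1.16 with each array scaled to 1 median. Splicing regulators had 42.9% higher and 0% lower, against 17.2% and 14.1% of all genes, and higher and lower calls numbered 21 and 3 with arrays 1 and 4 alone and 17 and 1 with arrays 2 and 3 alone. Rbm14, an RNA-binding coactivator, was at 8.80, 8.86, 7.98 and 8.46 in newly transcribed and 6.35, 6.12, 6.43 and 6.41 in total RNA (2.20 ± 0.21), but amplified minus unamplified total RNA gave 1.79 and its other probe set 0.24. Tra2b, a splicing activator, was at 11.42, 10.51, 10.65 and 11.31 in newly transcribed and 9.16, 9.20, 8.28 and 8.75 in total RNA (2.12 ± 0.28). Clk1, a kinase of SR proteins, was at 11.46, 10.28, 10.60 and 11.21 in newly transcribed and 8.93, 9.05, 8.72 and 8.74 in total RNA (2.02 ± 0.26), and its relative Clk4 gave 1.81. Newly transcribed arrays exceeded total RNA arrays for Rbm14, Tra2b and Clk1. Among chromatin modifiers 15 of 49 were higher and 5 lower, with a median of 0.40 here, 0.87 with the values as deposited and 0.58 with each array scaled to 1 median. Chromatin modifiers had 30.6% higher and 10.2% lower, against 17.2% and 14.1% of all genes, and higher and lower calls numbered 17 and 0 with the deposited values and 19 and 1 with median scaling. Eed, a subunit of Polycomb repressive complex 2, was at 9.88, 9.45, 9.78 and 10.68 in newly transcribed and 7.18, 7.24, 7.22 and 7.33 in total RNA (2.71 ± 0.24), and its partner Suz12 gave 1.76. Chd1, a chromatin remodeller, showed 2.43 ± 0.27. Rnf2, the ubiquitin ligase of Polycomb repressive complex 1, showed 2.22 ± 0.25, although its other probe sets gave -0.69 and -0.32 and 1 of those was called lower. The lower members were Hdac6 (-1.39), Sin3b (-1.18), Hdac1 (-1.0), Dnmt1 (-0.81) and Hdac3 (-0.75), which encode histone deacetylases (the Hdac genes), a scaffold of such complexes and a DNA methyltransferase.

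Developmental transcription factors were higher in 11 of 44 and lower in 2, with a median of 0.51 here, 0.83 with the values as deposited and 0.61 with each array scaled to 1 median. Developmental factors had 25% higher and 4.55% lower, against 17.2% and 14.1% of all genes, and higher and lower calls numbered 13 and 4 with arrays 1 and 4 alone, 15 and 4 with arrays 2 and 3 alone and 11 and 0 with the deposited values. Foxc2, a forkhead factor of mesoderm, was at 8.17, 9.40, 9.49 and 9.12 in newly transcribed and 5.97, 6.32, 6.47 and 5.92 in total RNA (2.87 ± 0.30). For Foxc2 and Pbx3 the other probe sets gave 0.81 and -0.14 to 0.20, not called. Sox11 showed 2.52 ± 0.44 and the Notch target Hey1 2.06 ± 0.20. Snai2, a factor of mesenchymal cells, gave 1.86, and Id2, an inhibitor of basic helix-loop-helix factors, 1.65. The lower members were Prrx1 (-1.61) and Gli3 (-1.09). Homeobox genes went both ways, with 15 of 111 higher, 10 lower and a median of -0.01 here, 0.09 with the values as deposited and -0.04 with each array scaled to 1 median. Homeobox genes had 13.5% higher and 9.01% lower, against 17.2% and 14.1% of all genes, and higher and lower calls numbered 11 and 0 with the deposited values. In all, 25 of them were under 16 units on all 8 arrays. Lhx8 (1.81 ± 0.31) and Pbx3 (1.62 ± 0.28) were higher, and Hoxa4 (-1.87 ± 0.22) was lower, although the other probe sets of Hoxa4 gave -0.02 to 0.59 and 1 of them was called higher.

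**Figure D4:**
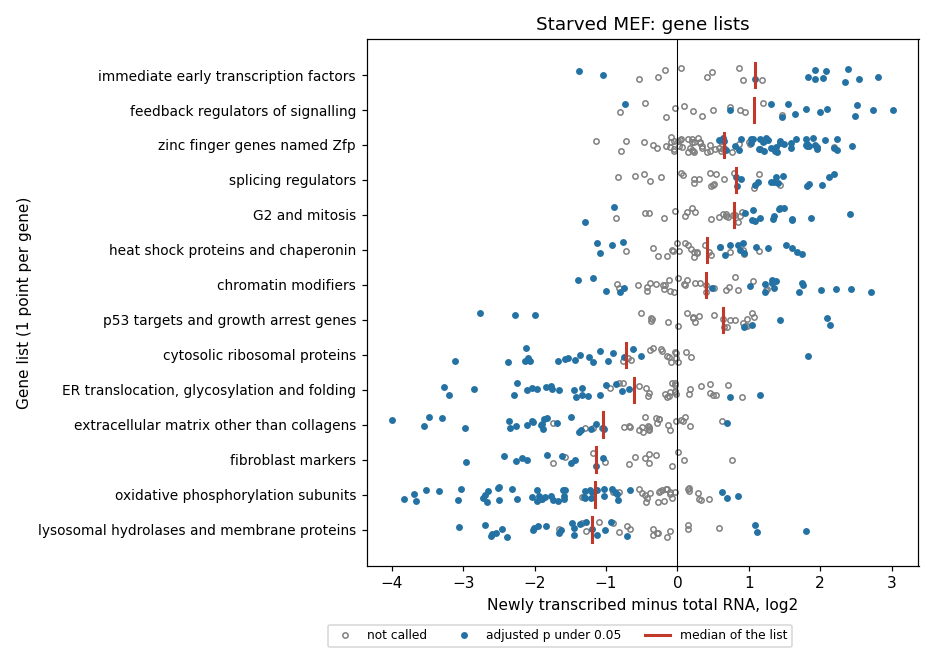
Newly transcribed minus total RNA in starved cells (log2, horizontal axis) for each measured gene of 14 lists, picked by hand from the 39. Filled points were called at an adjusted p under 0.05, open points were not, and red bars are list medians. Medians of the regulatory lists shown lie right of 0, up to 1.08. Those of mitochondrial, lysosomal, matrix, ER and ribosomal lists lie left of 0, down to -1.20. Lists left out include homeobox genes, interferon response and translation factors, with medians of -0.01, -0.03 and -0.05.

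Cell cycle genes were examined because starved fibroblasts rest in G1. Of the G2 and mitosis genes 14 of 36 were higher and 2 lower, with a median of 0.79 here, 1.23 with the values as deposited and 0.95 with each array scaled to 1 median. G2 and mitosis genes had 38.9% higher and 5.56% lower, against 17.2% and 14.1% of all genes, and higher and lower calls numbered 9 and 2 with arrays 1 and 4 alone, 10 and 0 with the deposited values and 20 and 0 with median scaling. Plk1, the kinase of mitotic entry, was at 8.28, 8.64, 8.34 and 8.74 in newly transcribed and 5.30, 6.79, 5.38 and 6.87 in total RNA (2.41 ± 0.39), but amplified minus unamplified total RNA gave 1.93 and its other probe sets -0.20 and 0.08. Prc1, which bundles microtubules in the spindle midzone, showed 1.88 ± 0.45. Plk4, the kinase of centriole duplication, showed 1.61 ± 0.33. The Aurora kinases Aurka (1.44) and Aurkb (1.5) were higher too. Cks1b (-1.30) and the mitotic transcription factor Foxm1 (-0.89) were lower. Of G1 and S phase genes 10 of 39 were higher and 2 lower, with a median of 0.36 here, 0.79 with the values as deposited and 0.53 with each array scaled to 1 median. G1 and S phase genes had 25.6% higher and 5.13% lower, against 17.2% and 14.1% of all genes, and higher and lower calls numbered 10 and 4 with arrays 1 and 4 alone, 9 and 0 with the deposited values and 14 and 1 with median scaling. Cdc6, which licenses replication origins, was at 7.95, 8.01, 7.93 and 7.66 in newly transcribed and 5.21, 6.15, 5.91 and 6.22 in total RNA (2.02 ± 0.23). Rpa2, which binds single-stranded DNA, showed 1.40 ± 0.33. Rfc2, a subunit of the clamp loader, was lower (-1.57 ± 0.28), as was the kinase Cdk4 (-1.34), while the large clamp loader subunit Rfc1 was higher (1.04).

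Among p53 targets and growth arrest genes 5 of 31 were higher and 3 lower, with a median of 0.64 here, 1.27 with the values as deposited and 0.97 with each array scaled to 1 median. The p53 and arrest genes had 16.1% higher and 9.68% lower, against 17.2% and 14.1% of all genes, and higher and lower calls numbered 8 and 2 with arrays 1 and 4 alone, 7 and 0 with the deposited values and 10 and 3 with median scaling. Ddit4, an inhibitor of the growth kinase mTOR, was at 10.84, 10.86, 10.35 and 11.02 in newly transcribed and 8.59, 8.67, 8.52 and 8.74 in total RNA (2.14 ± 0.16, adjusted p = 0.000132, limma). Mdm2, the ubiquitin ligase of p53, showed 1.05 ± 0.20. Against amplified total RNA these genes gave 1.49 and 1.53. The other higher members were Ccng2 (2.09), Sesn1 (1.43) and Ei24 (0.94). Gas6, a growth arrest ligand of TAM receptors, was at 8.11, 8.31, 9.34 and 7.78 in newly transcribed and 10.78, 10.92, 11.44 and 11.49 in total RNA (-2.77 ± 0.34). Cdkn2a, which encodes cell cycle inhibitors, was at 7.53, 7.18, 7.26 and 7.01 in newly transcribed and 7.33, 10.72, 9.84 and 10.18 in total RNA (-2.27 ± 0.65), and 1 total RNA array lay among the newly transcribed ones. Cdkn1c, another cyclin-dependent kinase inhibitor, was the remaining lower gene (-2.0). Cdkn1a, another such inhibitor, had 0.22 ± 0.61 and was not called (0.841). Apoptosis regulators were higher in 9 of 37 and lower in 4, with a median of 0.49 here, 0.94 with the values as deposited and 0.65 with each array scaled to 1 median. Apoptosis regulators had 24.3% higher and 10.8% lower, against 17.2% and 14.1% of all genes, and higher and lower calls numbered 11 and 0 with the deposited values and 16 and 3 with median scaling. Mcl1, a survival protein with a short life, was at 11.45, 10.03, 10.08 and 9.80 in newly transcribed and 8.54, 8.10, 8.71 and 8.74 in total RNA (1.82 ± 0.36). Birc2, an inhibitor of apoptosis, showed 2.30 ± 0.33, and Bcl10, an adaptor of NF-kappaB signalling, 2.14 ± 0.29. For Birc2 the other probe set gave 0.71, not called. The lower ones were Bad (-1.42), Bag1 (-0.89), Bcl2 (-0.84) and Xiap (-0.65), and Tradd had -1.82 ± 0.59 without passing the threshold (0.0512).

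Circadian genes were higher in 7 of 17 and lower in 0, with a median of 0.55 here, 1.13 with the values as deposited and 0.81 with each array scaled to 1 median. Circadian genes had 41.2% higher and 0% lower, against 17.2% and 14.1% of all genes, and higher and lower calls numbered 8 and 2 with arrays 2 and 3 alone. The repressor Nfil3 was at 7.66, 7.36, 6.78 and 7.26 in newly transcribed and 6.53, 5.04, 5.69 and 5.55 in total RNA (1.56 ± 0.32), with -0.33 from its other probe set. The clock activators Clock (1.43 ± 0.44) and Arntl (1.13) were higher, as were the repressors Cry1 (1.15), Per2 (1.02) and Nr1d1 (0.89) and Bhlhe40 (1.38 ± 0.32). Amplified minus unamplified total RNA had a median of -0.37 in this list and newly transcribed minus amplified total RNA 0.74.

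Mitochondrial oxidative phosphorylation, the respiratory chain and ATP synthase, held the highest share of lower genes among the 39 lists in the main comparison. With each array scaled to 1 median, 37 of 74 were lower, the same share as in cytosolic ribosomal proteins (18 of 36). With arrays 2 and 3 alone, fibroblast markers had a slightly higher share (15 of 25) than these genes (44 of 74). Of 74 measured subunits and assembly factors, 44 were lower (59.5%, against 14.1% of all genes) and 3 higher. The median was -1.16 here, -0.37 with the values as deposited and -0.68 with each array scaled to 1 median. Oxidative phosphorylation genes had 4.05% higher and 59.5% lower, against 17.2% and 14.1% of all genes, and higher and lower calls numbered 0 and 44 with arrays 2 and 3 alone and 3 and 21 with the deposited values. Members of each respiratory complex were among the lower ones: complex I with Ndufb10 (-3.52), Ndufb6 (-3.07) and Ndufv3 (-3.03), complex III with Uqcr11 (-3.67) and Uqcr10 (-2.73), complex IV with Cox6b2 (-3.34) and Cox5b (-2.69), and ATP synthase with Atp5l (-3.83) and Atp5e (-3.69). Complex II had Sdhb (-1.23) called and Sdhc, Sdha and Sdhd not called, at -1.34, -0.38 and -0.11. The higher members were cytochrome c, Cycs (0.85), the ATP synthase subunit Atp5a1 (0.70) and the core subunit Uqcrc2 (0.62). Against amplified total RNA, a comparison that called 0 probe sets with the deposited values, a pseudocount of 1 or the replicate block, 30 of the 74 were lower and 0 higher, where 2.27% of all genes were lower. The median there was -1.30, and amplified minus unamplified total RNA had a median of 0.05.

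Mitochondrial ribosomal proteins were split, with 11 of 61 higher and 21 lower and a median of -0.29 here, 0.15 with the values as deposited and -0.08 with each array scaled to 1 median. Mitochondrial ribosomal proteins had 18% higher and 34.4% lower, against 17.2% and 14.1% of all genes, and higher and lower calls numbered 11 and 2 with the deposited values. Mrps2 was at 8.43, 8.75, 8.72 and 8.56 in newly transcribed and 6.56, 6.30, 6.51 and 6.32 in total RNA (2.19 ± 0.13), and Mrpl52 at 7.81, 7.77, 7.62 and 7.89 in newly transcribed and 10.29, 9.93, 9.61 and 9.65 in total RNA (-2.10 ± 0.17). Mrps21, another small-subunit protein, was lower like Mrpl52 (-2.01 ± 0.35). The arrays of Mrps2 and Mrpl52 lay close together within each group. Mrps2 was called under every scaling, while Mrpl52 and Mrps21 kept their sign but missed the threshold with the values as deposited. Cytosolic ribosomal proteins, whose messages are known to be stable, were lower in 19 of 36 and higher in 1, with a median of -0.72 here, -0.43 with the values as deposited and -0.75 with each array scaled to 1 median. Cytosolic ribosomal proteins had 2.78% higher and 52.8% lower, against 17.2% and 14.1% of all genes, and higher and lower calls numbered 1 and 4 with the deposited values. Rps7 was at 7.99, 9.28, 9.13 and 9.08 in newly transcribed and 11.86, 12.17, 11.91 and 11.98 in total RNA (-3.11 ± 0.28). Rpl37a was at 7.90, 8.27, 8.04 and 9.04 in newly transcribed and 10.82, 10.81, 10.68 and 10.45 in total RNA (-2.37 ± 0.25), of which -2.12 lay between newly transcribed and amplified total RNA. Rpl19 showed -2.14 ± 0.28, while its other probe set gave 1.05 and was called higher. The member called higher by its brightest probe set was Rpl7l1 (1.83), a relative of Rpl7 that acts in ribosome biogenesis. Near-identical copies are common in this family, and the signal of a probe set can come from them.

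Translation factors were also split, with 11 of 51 higher and 10 lower and a median of -0.05 here, 0.53 with the values as deposited and 0.21 with each array scaled to 1 median. Translation factors had 21.6% higher and 19.6% lower, against 17.2% and 14.1% of all genes, and higher and lower calls numbered 16 and 2 with the deposited values. Eif3k, a subunit of an initiation complex, was at 7.07, 7.41, 7.61 and 7.30 in newly transcribed and 10.81, 10.29, 9.89 and 9.96 in total RNA (-2.89 ± 0.23). Eef1d, an elongation factor subunit, showed -1.71 ± 0.20, and Eif2ak3, the kinase PERK that halts translation under ER stress, 1.95 ± 0.32. Eef1a1, the main elongation factor, was near the top of the scale in all arrays at 12.64, 12.77, 12.86 and 12.53 in newly transcribed and 12.77, 13.0, 12.77 and 12.77 in total RNA and was not called (-0.13 ± 0.13, adjusted p = 0.53, limma). Proteasome subunits were higher in 7 of 37 and lower in 9, with a median of -0.25 here, 0.42 with the values as deposited and 0.09 with each array scaled to 1 median. Proteasome subunits had 18.9% higher and 24.3% lower, against 17.2% and 14.1% of all genes, and higher and lower calls numbered 9 and 0 with the deposited values and 10 and 2 with median scaling. Psmb3, a subunit of the catalytic core, was at 7.20, 8.18, 8.27 and 8.04 in newly transcribed and 10.32, 10.10, 9.81 and 9.95 in total RNA (-2.12 ± 0.25), and Psmb6, another, showed -1.69 ± 0.22. Psmd5, a chaperone of the regulatory particle, showed 1.36 ± 0.21.

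Extracellular matrix genes other than collagens were lower in 24 of 52 and higher in 1, with a median of -1.05 here, -0.45 with the values as deposited and -0.71 with each array scaled to 1 median. Matrix genes had 1.92% higher and 46.2% lower, against 17.2% and 14.1% of all genes, and higher and lower calls numbered 0 and 26 with arrays 1 and 4 alone, 0 and 24 with arrays 2 and 3 alone and 0 and 5 with the deposited values. Ogn, osteoglycin, a small proteoglycan, was at 8.33, 7.84, 7.35 and 7.95 in newly transcribed and 10.27, 11.31, 12.18 and 11.65 in total RNA (-3.48 ± 0.39, adjusted p = 0.000639, limma) and gave -2.86 against amplified total RNA. Proteoglycans and microfibril proteins followed (Fmod (-3.30), Hspg2 (-2.97), Mfap2 (-2.35) and Mfap4 (-2.27)), besides Timp2 and Pcolce. Timp3, another metalloproteinase inhibitor, was the higher one (0.69). Collagens were lower in 10 of 31 and higher in 0, with a median of -0.45 here, -0.28 with the values as deposited and -0.46 with each array scaled to 1 median. Collagens had 0% higher and 32.3% lower, against 17.2% and 14.1% of all genes, and higher and lower calls numbered 0 and 1 with the deposited values. Col6a2 was at 6.43, 8.76, 8.75 and 6.30 in newly transcribed and 11.11, 10.03, 11.10 and 9.87 in total RNA (-2.97 ± 0.66), and its partner chain Col6a1 at 8.98, 9.14, 9.07 and 7.72 in newly transcribed and 11.5, 10.69, 11.49 and 10.96 in total RNA (-2.43 ± 0.35). Col1a1 and Col1a2 encode the chains of collagen I. Col1a1 was at 9.0, 11.05, 11.75 and 9.34 in newly transcribed and 12.70, 12.49, 12.64 and 12.36 in total RNA (-2.26 ± 0.58, adjusted p = 0.0201, limma), while Col1a2 was at 12.24, 11.88, 12.06 and 11.23 in newly transcribed and 12.38, 12.24, 12.58 and 12.58 in total RNA (-0.59 ± 0.22, adjusted p = 0.0853, limma). The other probe set of Col1a1 gave -1.31 and was not called, and that of Col1a2 gave -1.30 and was called lower, so which chain was called turned on the probe set. Col8a1, a short-chain collagen, showed -2.86 ± 0.68. In Col6a2 and Col1a1, arrays 1 and 4 of newly transcribed RNA lay below arrays 2 and 3.

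Lysosomal genes were lower in 23 of 43 (53.5%) and higher in 3, with a median of -1.20 here, -0.47 with the values as deposited and -0.78 with each array scaled to 1 median. Lysosomal genes had 6.98% higher and 53.5% lower, against 17.2% and 14.1% of all genes, and higher and lower calls numbered 3 and 3 with the deposited values. Scpep1, a serine carboxypeptidase, was at 7.11, 8.01, 8.29 and 5.67 in newly transcribed and 10.07, 10.05, 10.74 and 10.47 in total RNA (-3.06 ± 0.53). Ctsf, cathepsin F, was at 6.26, 6.30, 6.26 and 6.07 in newly transcribed and 8.23, 9.0, 9.29 and 9.17 in total RNA (-2.70 ± 0.23). Man2b1, a mannosidase, was at 8.33, 7.71, 8.14 and 5.96 in newly transcribed and 9.93, 10.30, 10.15 and 10.18 in total RNA (-2.61 ± 0.47), with 0.33 from its other probe set. Among the lower genes were soluble hydrolases and their helpers, such as Glb1 (-2.55), Arsa (-2.46) and Ctsa (-2.38). The 3 higher genes, Atp6v1b2 (1.80), Atp6v1a (1.12) and Atp6v1c1 (1.09), all encode cytosolic subunits of the proton pump that acidifies the organelle. Genes of ER translocation, glycosylation and folding were lower in 22 of 50 and higher in 2, with a median of -0.60 here, -0.04 with the values as deposited and -0.23 with each array scaled to 1 median. ER genes had 4% higher and 44% lower, against 17.2% and 14.1% of all genes, and higher and lower calls numbered 4 and 21 with arrays 1 and 4 alone, 1 and 22 with arrays 2 and 3 alone, 4 and 3 with the deposited values and 4 and 16 with median scaling. Pdia6, a disulfide isomerase, was at 6.58, 6.35, 6.59 and 6.21 in newly transcribed and 9.06, 9.90, 9.55 and 10.32 in total RNA (-3.28 ± 0.26). The other probe sets of Pdia6 gave -2.46, called lower, and 0.45, not called. Sec61b, a subunit of the translocation channel, was at 6.27, 7.20, 7.01 and 7.79 in newly transcribed and 10.22, 10.63, 9.96 and 10.25 in total RNA (-3.20 ± 0.31), and Ppib, a prolyl isomerase that helps collagen fold, at 7.51, 7.84, 7.29 and 7.79 in newly transcribed and 10.31, 10.48, 10.56 and 10.5 in total RNA (-2.86 ± 0.15). The higher genes were the COPI coat subunits Copb1 (1.16) and Arcn1 (0.73), while the coat subunits Copa (-2.11) and Cope (-1.97) were lower.

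Actin cytoskeleton and contractile genes were lower in 15 of 57 and higher in 4, with a median of -0.21 here, 0.19 with the values as deposited and -0.13 with each array scaled to 1 median. Actin genes had 7.02% higher and 26.3% lower, against 17.2% and 14.1% of all genes, and higher and lower calls numbered 6 and 24 with arrays 1 and 4 alone and 2 and 3 with the deposited values. Cfl1, cofilin, which severs filaments, was at 7.75, 10.23, 10.02 and 7.5 in newly transcribed and 11.53, 11.40, 11.32 and 11.20 in total RNA (-2.49 ± 0.63). Gsn, gelsolin, another severing protein, was at 7.78, 9.59, 10.05 and 8.17 in newly transcribed and 11.34, 11.06, 11.46 and 11.29 in total RNA (-2.39 ± 0.48). In both, arrays 1 and 4 of newly transcribed RNA were lower than arrays 2 and 3. Higher members were Actn1 (1.03), Vcl (0.56), Anxa1 (0.5) and Cnn3 (0.47), which include the focal adhesion proteins alpha-actinin and vinculin. The brightest Actb probe set was at 10.89, 6.46, 6.5 and 11.67 in newly transcribed and 8.96, 8.76, 8.25 and 8.37 in total RNA, so that the newly transcribed arrays lay on both sides of total RNA (0.29 ± 1.19, adjusted p = 0.897, limma). For Actb the other probe set gave 0.07, not called. With arrays 2 and 3 alone the brightest set was called lower at -2.11.

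Metabolic lists were smaller. Of glycolysis genes 6 of 19 were lower and 1 higher, with a median of -0.20 here, 0.06 with the values as deposited and -0.10 with each array scaled to 1 median. Glycolysis genes had 5.26% higher and 31.6% lower, against 17.2% and 14.1% of all genes, and higher and lower calls numbered 3 and 5 with arrays 2 and 3 alone and 1 and 1 with the deposited values. Besides Hk1, the pyruvate kinase Pkm was at 9.64, 10.44, 10.72 and 8.15 in newly transcribed and 11.73, 11.38, 11.25 and 11.45 in total RNA (-1.71 ± 0.51) and the phosphofructokinase Pfkl at -1.68 ± 0.42. For Pkm the other probe set gave -1.51, not called. The higher member was the enolase Eno2 (1.26). In cholesterol and fatty acid synthesis 8 of 26 were higher and 4 lower, with a median of 0.28 here, 0.76 with the values as deposited and 0.51 with each array scaled to 1 median. Lipid synthesis genes had 30.8% higher and 15.4% lower, against 17.2% and 14.1% of all genes, and higher and lower calls numbered 9 and 0 with the deposited values. Msmo1, a sterol oxidase, was at 10.81, 9.54, 9.76 and 9.11 in newly transcribed and 7.87, 7.88, 7.19 and 8.21 in total RNA (2.02 ± 0.37), and Cyp51, a demethylase of the same route, showed 1.62 ± 0.23. Fdps, the synthase of farnesyl diphosphate, was at 7.63, 8.35, 9.52 and 7.82 in newly transcribed and 9.99, 10.70, 9.99 and 10.28 in total RNA (-1.91 ± 0.40), with -0.85 to 0.25 from other probe sets. The further lower ones were Nsdhl (-1.35), Mvk (-1.14) and Scd1 (-0.98). Of tRNA synthetases 2 of 19 were higher, Nars (0.95 ± 0.22) and Rars (0.93 ± 0.21), and 1 was lower, Vars (-1.21 ± 0.30). Their median was 0.17 here, 0.67 with the values as deposited and 0.49 with each array scaled to 1 median. The synthetases had 10.5% higher and 5.26% lower, against 17.2% and 14.1% of all genes, and higher and lower calls numbered 1 and 4 with arrays 1 and 4 alone, 3 and 0 with arrays 2 and 3 alone, 2 and 0 with the deposited values and 5 and 0 with median scaling. Solute carriers were higher in 23 of 142 and lower in 12, with a median of 0.03 here, 0.20 with the values as deposited and 0.01 with each array scaled to 1 median. Solute carriers had 16.2% higher and 8.45% lower, against 17.2% and 14.1% of all genes, and higher and lower calls numbered 17 and 0 with the deposited values and 27 and 7 with median scaling. Slc20a1, a phosphate transporter, was at 12.21, 10.67, 10.83 and 10.43 in newly transcribed and 9.65, 8.44, 8.52 and 8.91 in total RNA (2.15 ± 0.42). Slc25a51, the mitochondrial carrier of NAD, showed 2.18 ± 0.28, of which 1.97 lay between the kinds of total RNA. Slc38a10 was lower (-2.24 ± 0.37). For Slc25a51 and Slc38a10 the other probe sets gave 0.18 and -0.0077, not called.

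Heat shock proteins and chaperonins were higher in 13 of 40 and lower in 4, with a median of 0.42 here, 0.99 with the values as deposited and 0.71 with each array scaled to 1 median. Heat shock proteins had 32.5% higher and 10% lower, against 17.2% and 14.1% of all genes, and higher and lower calls numbered 6 and 2 with arrays 1 and 4 alone, 9 and 1 with arrays 2 and 3 alone, 15 and 0 with the deposited values and 21 and 1 with median scaling. Hspa4, a nucleotide exchange factor of the chaperone family, was at 10.94, 11.24, 11.27 and 12.17 in newly transcribed and 8.42, 10.31, 10.08 and 9.83 in total RNA (1.74 ± 0.44), but its other probe sets ran from -0.70 to 1.32, with calls in both directions. Dnaja2 (1.67 ± 0.25) and Dnaja1 (1.60 ± 0.29), cochaperones with a J domain, were higher, and the lower members were Dnajc5 (-1.13), Stip1 (-1.08), Hspe1 (-0.91) and Hspb2 (-0.76). Interferon response genes went both ways: 10 of 40 were higher and 8 lower, with a median of -0.03 here, 0.35 with the values as deposited and 0.08 with each array scaled to 1 median. Interferon genes had 25% higher and 20% lower, against 17.2% and 14.1% of all genes, and higher and lower calls numbered 6 and 11 with arrays 1 and 4 alone and 5 and 0 with the deposited values. Among the lower were the antigen presentation genes H2-D1, at 6.75, 8.06, 8.13 and 6.73 in newly transcribed and 9.18, 10.47, 10.25 and 10.94 in total RNA (-2.79 ± 0.47), Tapbp (-2.18 ± 0.25), H2-K1 (-1.81) and B2m (-1.52), and the ubiquitin-like Isg15 (-1.95 ± 0.44). Among the higher were the regulators Usp18 (1.75), Irf9 (1.64) and Irf8 (1.39) and the GTPase Irgm1 (1.73). For H2-D1 the other probe sets gave -1.60 to -0.77, not called. The other probe sets of Tapbp ran from -2.18 to -0.16. H2 genes have close relatives on the array, and their signals may not be separate.

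Histone genes were lower in 4 of 20 and higher in 1, with a median of -0.08 here, -0.04 with the values as deposited and -0.14 with each array scaled to 1 median, and 10 were under 16 units on all 8 arrays. Histone genes had 5% higher and 20% lower, against 17.2% and 14.1% of all genes, and higher and lower calls numbered 0 and 4 with arrays 1 and 4 alone, 2 and 4 with arrays 2 and 3 alone and 0 and 3 with the deposited values. H1f10, a linker histone, was at 4.12, 4.49, 5.01 and 4.31 in newly transcribed and 8.28, 6.94, 7.94 and 6.79 in total RNA (-3.0 ± 0.36). Amplified minus unamplified total RNA gave -2.43. Its newly transcribed arrays and amplified arrays 1 and 3 (4.30 and 4.26) were close to the bottom of the scale, so the difference cannot be split into steps. H3c14 was at 6.13, 6.55, 6.04 and 7.18 in newly transcribed and 8.74, 8.91, 8.89 and 9.30 in total RNA (-2.48 ± 0.26) and -3.43 against amplified total RNA. H2bc1 showed -1.51 ± 0.28, H1f2 was lower too (-1.10) and H2aj was higher (1.21). Histone genes have near-identical copies. Of 7 measured noncoding RNAs 2 were higher and 1 lower, with a median of -0.10 here, 0.04 with the values as deposited and -0.05 with each array scaled to 1 median. Noncoding RNAs had 28.6% higher and 14.3% lower, against 17.2% and 14.1% of all genes, and higher and lower calls numbered 2 and 0 with arrays 1 and 4 alone, 2 and 2 with arrays 2 and 3 alone and 2 and 0 with the deposited values. Those called in the main comparison, Snhg5, Snhg1 and Snhg6, are hosts of small nucleolar RNAs. Snhg5 was at 9.27, 8.0, 8.09 and 9.75 in newly transcribed and 6.30, 6.15, 5.82 and 6.16 in total RNA (2.67 ± 0.39), though amplified minus unamplified total RNA gave 1.89. Snhg1 was at 9.89, 9.98, 9.69 and 10.11 in newly transcribed and 8.72, 8.33, 8.07 and 8.27 in total RNA (1.57 ± 0.17), and Snhg6 at 8.36, 8.26, 8.39 and 8.66 in newly transcribed and 10.95, 9.70, 9.38 and 9.58 in total RNA (-1.49 ± 0.33), with 0.14 from its other probe set. Xist, the nuclear RNA of the inactive X chromosome, was at 6.65, 4.76, 4.64 and 7.80 in newly transcribed and 5.46, 6.24, 7.26 and 6.02 in total RNA and was not called (-0.28 ± 0.73, adjusted p = 0.83, limma).

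Cell type markers were read to check the label and the purity of the cultures. All 25 fibroblast markers were measured and 11 were lower and 0 higher, with a median of -1.14 here, -0.70 with the values as deposited and -0.99 with each array scaled to 1 median. Fibroblast markers had 0% higher and 44% lower, against 17.2% and 14.1% of all genes, and higher and lower calls numbered 1 and 15 with arrays 2 and 3 alone and 0 and 0 with the deposited values. Their mean level ran from 8.41 to 8.99 in newly transcribed and from 9.49 to 9.99 in total RNA. Over all genes it ran from 6.63 to 6.67 and from 6.62 to 6.64. Fibroblast markers were thus bright on average in every array, although levels of different probe sets compare only roughly. The Vim probe set that stands for vimentin was near the bottom of the scale, at 5.18, 4.91, 5.25 and 6.0 in newly transcribed and 5.33, 5.61, 5.04 and 4.99 in total RNA (0.09 ± 0.25, adjusted p = 0.838, limma). Macrophage markers were present as well. Of 25 measured, 6 were lower and 2 higher, the mean level was 6.12 to 7.17 in newly transcribed and 6.78 to 7.73 in total RNA, and the median was -0.32 here, 0.04 with the values as deposited and -0.17 with each array scaled to 1 median. Macrophage markers had 8% higher and 24% lower, against 17.2% and 14.1% of all genes, and higher and lower calls numbered 1 and 7 with arrays 1 and 4 alone, 1 and 1 with arrays 2 and 3 alone, 1 and 1 with the deposited values and 2 and 3 with median scaling. C1qa, C1qb and C1qc, complement genes that macrophages express, were among the lower ones. C1qa was at 6.62, 8.82, 8.10 and 6.05 in newly transcribed and 9.26, 9.80, 8.83 and 9.97 in total RNA (-2.07 ± 0.60), C1qb at 7.27, 8.57, 7.92 and 5.74 in newly transcribed and 8.87, 10.57, 9.37 and 10.39 in total RNA (-2.42 ± 0.63) and C1qc at 7.42, 9.47, 9.05 and 6.98 in newly transcribed and 9.60, 10.83, 9.91 and 10.84 in total RNA (-2.06 ± 0.59). For C1qb the other probe set gave -0.0078, not called. Lyz2, Itgam and Tyrobp were the other lower ones (-1.78, -1.25 and -1.23), and Msr1 (1.41) and Ptprc (1.10) were higher. The part of macrophages in the lysosomal and interferon lists was not tested.

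Markers of other cell types were dim on average. The array means of these lists in total RNA ran from 4.71 to 5.39, against 6.62 to 6.64 over all genes. Single members were brighter, with total RNA means of 8.89 for Actc1, 8.77 for Tfrc, 8.56 for Eng, 7.18 for Perp and 6.92 for Cdh1. Endothelial markers had 1 of 13 higher, the VEGF receptor Kdr (0.87 ± 0.23), and 1 lower, Eng (-0.90 ± 0.21), which fibroblasts also express, while Sox18 was at -0.52 ± 0.24 and not called. Cdh5, Cldn5 and Tie1 were at 4.22, 4.22 and 4.21 in total RNA, next to the floor of 4 that an intensity of 0 gives. Of 25 epithelial markers 15 were under 16 units on all 8 arrays. Trp63 was higher (0.79 ± 0.24), Cdh1 (-0.70 ± 0.22) and Krt8 (-0.56) were lower, and Perp was at 0.64 ± 0.98 and not called (0.695), while Epcam was next to the floor (4.18). Skeletal muscle markers were lower in 4 of 30, namely Tnni1 (-1.29 ± 0.31), Actc1 (-1.22 ± 0.21), Tnnt1 (-0.55) and Myh7 (-0.46), with Myh4 at -0.56 ± 0.37 and not called. Neural markers had Mbp higher (1.29 ± 0.30) and Stmn2 lower (-1.02 ± 0.22) of 22, and Map2 at -0.84 ± 0.32 was not called. Of 15 erythroid markers Tfrc, the transferrin receptor of dividing cells generally, was lower (-0.92 ± 0.28), and Slc4a1 (-0.35 ± 0.30) and Nfe2 (0.31 ± 0.25) were not called. For Actc1, Mbp, Stmn2, Tfrc, Sox18 and Myh4 the other probe sets gave -0.05, 0.06, 0.42 to 0.55, -0.30, 0.34 and 0.07, not called. Higher and lower calls made up 7.69% and 7.69% of endothelial, 4% and 8% of epithelial and 0% and 13.3% of muscle markers. Neural markers had 4.55% and 4.55% and erythroid ones 0% and 6.67%, against 17.2% and 14.1% of all genes. Across the array pairs and scalings these 5 lists had 0 to 2 members called higher and 0 to 4 lower each. The medians of these 5 lists lay between -0.13 and -0.01.

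Treated cells gave the same comparison on other arrays, with serum in place of starvation during labelling. There, 905 genes were higher (11%) and 871 lower (10.6%). Of the 1788 probe sets higher in starved cells, 99.27% had the same sign in treated cells and 54.87% were also called higher, and of the 1618 lower ones 99.2% had the same sign and 61.56% were also called, where 52.14% of all probe sets were positive in treated cells. The treated arrays are not independent of the starved ones, since all arrays were normalised together. Same-numbered newly transcribed arrays also deviated together from their group means (r from 0.70 to 0.80 over probe sets). Same-numbered total RNA arrays did so at r from 0.23 to 0.70. A test of the difference between conditions called 0 of 12422 probe sets (limma), with 300 at an unadjusted p under 0.05 and a smallest adjusted p of 0.685. That test did not pair same-numbered starved and treated arrays, so their shared deviations stayed in its spread. The 0 calls therefore do not show that the conditions were alike. In treated cells Nup54 showed 4.37, Ints5 3.27, Elob -3.36, Nfix -3.96 and Timp2 -3.5. Ogn was at -4.74, beside -3.48 in starved cells. Fos was at 2.11, Jun at 1.51, and Myc at 1.18, beside 2.55, 2.05 and 1.08 in starved cells. Median differences by list were 1.06 for immediate early factors, 0.97 for feedback regulators, 0.69 for Zfp genes, -0.97 for oxidative phosphorylation, -1.29 for lysosomal and -0.77 for matrix genes, where the median of all genes was 0.02.

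Calls depended on how bright a gene was. Genes were divided into 5 groups of equal size by mean level over the 23 arrays. In the dimmest group 1.09% were higher and 1.27% lower, and in the brightest group 26.6% and 23.7%. The groups between them lay in order from 11.9% and 7.7% to 24.7% and 21.4%. At a low level, a gene that was not called is not shown to be alike in both kinds of RNA. Of the 2073 genes with several probe sets, 964 had at least 1 probe set called, 143 had all of them called the same way and 52 had calls in both directions. The median SD over 4 arrays was 0.36 in newly transcribed and 0.27 in total RNA over all genes, each by its brightest probe set.

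**Figure D5:**
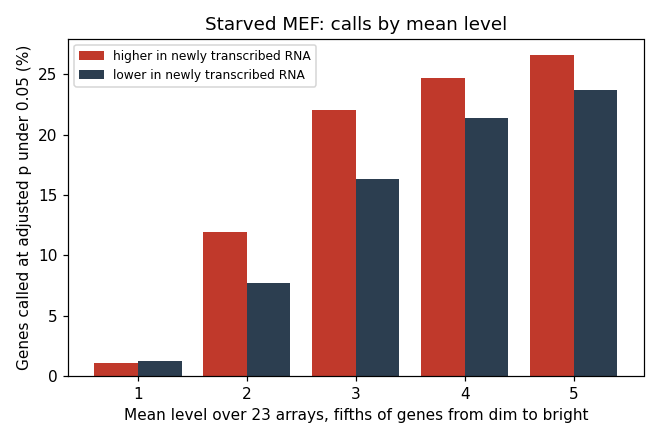
Percent of genes called higher and lower in newly transcribed RNA of starved cells (vertical axis, adjusted p under 0.05) in 5 equal groups of genes ordered by mean level from dim to bright (horizontal axis). The share goes from 1.09% higher and 1.27% lower in the dimmest group to 26.6% and 23.7% in the brightest.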

How the data were processed

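Probe set intensities of 23 one-colour Affymetrix arrays were used as deposited by the authors in the value table; which software summarised them, and with what scaling, is not given in the sources used here. From the deposited values, 66 control probe sets were set aside, all arrays were quantile normalised together, 16 was added and log2 was taken. For the values of control probe sets, the arrays were quantile normalised with these 66 probe sets kept in. Tests used limma 3.58.1, functions lmFit and eBayes, with R 4.3.3, over 12422 probe sets, two-sided, with Benjamini-Hochberg adjustment and calls at an adjusted p below 0.05. It was tested on simulated data. Each comparison was fitted on its own groups, and control ratios were tested by exact permutation. The number of arrays limits the precision.

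Gene names came from GEO's platform annotation: 10833 probe sets had 1 symbol, 396 several and 1193 were not listed. Of 8251 genes, each by its brightest probe set with 1 symbol, 8237 matched RefSeq (GRCm38.p6). A promoter entry existed for 79.7% of genes, too few for a check of promoters, which is therefore void, and bins by protein length were not run.

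The members and lists were chosen with earlier results of these data known. Named genes were the 12 largest higher and the 12 largest lower differences among those called with no overlap between the groups, the 3 largest absolute differences in each list, and a fixed set (Fos, Jun, Egr1, Myc, Ier2, Actb, Gapdh, Col1a1, Col1a2, Vim, Eef1a1, Xist, Mcl1, Nfkbia, Cdkn1a and Mdm2), of which Gapdh had no probe set with 1 symbol. Other members named in the text were chosen after their values were seen.

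Titles call the arrays biological replicates, but nothing says which came from separate cultures, so p-values measure the spread between these arrays. Deviations of same-numbered newly transcribed and total RNA arrays correlated at 0.24, 0.05, 0.09 and 0.02, so the replicate number was not used as a block in the comparisons as given. Alternatives covered scaling, pseudocount, filter, trend, pooled fit, block, probe set choice and leaving out arrays.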

Additional observations from a re-analysis of the deposited data

Results flagged for a closer look

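Among 292 groups of 4 arrays, 1 for each named gene and kind of RNA and the controls, 13 held an array far from the other 3 by Dixon's criterion, where chance gives about 1 in 20. Newly transcribed array 4 was far from the rest in 4 genes. In it, Nup54 was at 11.46, against 9.68 to 9.87 in the others, Nfix was at 8.82 against 5.96 to 6.23, Ctsf was at 6.07 against 6.26 to 6.30, and Col6a1 was at 7.72 against 8.98 to 9.14. Newly transcribed array 1 held Taf1d at 11.51 against 10.19 to 10.33 and Rps7 at 7.99 against 9.08 to 9.28, and array 3 held Tfrc at 7.10 against 8.07 to 8.13. Total RNA array 1 held Vars at 8.69 against 7.79 to 7.88, Dnaja2 at 7.25 against 7.90 to 8.02 and Dnaja1 at 9.38 against 10.06 to 10.18. Total RNA array 2 held Ints5 at 6.91 against 6.27 to 6.32 and Eef1a1 at 13.00 against 12.77, and array 3 held Nfix at 11.23 against 10.56 to 10.58.

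Control probe sets for the opposite strand of Gapdh and beta-actin entered no comparison of the text. The 3' set of Gapdh averaged 6.30 on newly transcribed, 5.04 on unamplified and 6.46 on amplified total RNA arrays, and the 5' set averaged 5.63, 4.48 and 5.39 (newly transcribed against total RNA, exact permutation test, two-sided, unadjusted p = 0.0286 each, the smallest that 4 against 4 arrays can give). The other 4 such sets did not reach this p. The middle set of Gapdh was at 5.64, 4.84 and 5.98 (exact permutation p = 0.114), and those of actin differed between newly transcribed and total RNA by 0.77 at the 3' end (exact permutation p = 0.0571), -0.38 at the 5' end and -0.17 in the middle.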

How the results depend on the processing

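The count of 3406 probe sets kept within 1.5 times under each alternative run except the values as deposited, which gave 1818 in all and 234 lower. It ran from 2659 without total RNA replicate 3 to 3182 with single arrays left out, and was 3411 with quantile normalization over the 8 arrays, 3174 and 3128 with pseudocounts of 1 and 64, 2945 with the dimmer probe sets left out, 3305 with an intensity trend, 2887 with all groups in one fit, and 3747 and 3330 with arrays 1 and 4 or 2 and 3 alone. With the replicate block it was 3223. Same-numbered newly transcribed and total RNA arrays deviated together only weakly, so the numbers were not taken to pair them. For newly transcribed minus amplified total RNA the count was 0 as deposited, 0 with a pseudocount of 1, 0 with the replicate block (2623 at an unadjusted p under 0.05, limma), and 0 to 245 with single arrays left out. For amplified minus unamplified total RNA it was 0 as deposited, 183 with a pseudocount of 1, 0 with the replicate block (2296 unadjusted, limma), and 0 to 2161 with single arrays left out. In treated cells it ran from 1523 to 2303 with single arrays left out. The difference between conditions stayed at 0 calls under each alternative run. No alternative paired starved and treated arrays within a kind of RNA. Of the 144 named genes, 103 kept sign and call as deposited and 41 kept only the sign; Actb went from 0.29 to -2.11 with arrays 2 and 3 alone. List medians that moved by more than the spread between arrays were, as deposited, feedback regulators of signalling 1.64, cytokines and chemokines and growth factors 0.56, developmental transcription factors and ID genes 0.83, mRNA decay regulators 0.81, splicing regulators 1.44, chromatin modifiers 0.87, apoptosis regulators 0.94, p53 targets and growth arrest genes 1.27, G1 and S phase 0.79, glycolysis 0.064, extracellular matrix other than collagens -0.45, actin cytoskeleton and contractile genes 0.19, lysosomal hydrolases and membrane proteins -0.47, ER genes -0.035, cholesterol and fatty acid synthesis 0.76, tRNA synthetases 0.67, heat shock proteins and chaperonin 0.99, interferon response 0.35, circadian genes 1.13, fibroblast markers -0.70, skeletal muscle markers -0.037, neural markers 0.0082, erythroid markers 0.10, Zfp genes 1.04, cytosolic ribosomal proteins -0.43, mitochondrial ribosomal proteins 0.15, oxidative phosphorylation subunits -0.37, translation factors 0.53, proteasome subunits 0.42, solute carriers 0.20 and all genes 0.20. With each array scaled to 1 median they were cytokines and chemokines and growth factors 0.37, apoptosis regulators 0.65, p53 targets and growth arrest genes 0.97, extracellular matrix other than collagens -0.71, lysosomal hydrolases and membrane proteins -0.78, ER genes -0.23, cholesterol and fatty acid synthesis 0.51, tRNA synthetases 0.49, heat shock proteins and chaperonin 0.71, Zfp genes 0.82, mitochondrial ribosomal proteins -0.080, oxidative phosphorylation subunits -0.68, translation factors 0.21, proteasome subunits 0.095 and all genes 0.032. With a pseudocount of 1 they were apoptosis regulators 0.62, epithelial markers -0.18, skeletal muscle markers -0.24, neural markers -0.14, erythroid markers -0.14, Zfp genes 1.09 and histones -0.35. With the median over all probe sets of a gene they were mRNA decay regulators 0.24, chromatin modifiers 0.14, apoptosis regulators 0.35, p53 targets and growth arrest genes 0.38, ER genes -0.40 and heat shock proteins and chaperonin 0.27. With arrays 1 and 4 alone they were decay regulators 0.88, apoptosis regulators 0.29, G1 and S phase 0.072 and actin genes -0.59. Translation factors were at -0.23 there. With arrays 2 and 3 alone they were decay regulators 0.23, p53 and arrest genes 0.32, translation factors 0.19 and proteasome subunits 0.10. Epithelial markers were at -0.11 there. The cause of these shifts was not tested. Signal near the floor limits what could be called, and 1200 of 8251 genes were under 16 units on all 8 arrays.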
